A study of Mus musculus with 57 samples.

Results

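Zinc finger protein genes named Zfp with a number were taken from the deposited expression table of single mouse T helper 2 (Th2) cells. A gene was a member if its symbol was Zfp followed by a number, with or without a letter and a further number. The name was the only criterion, and no measured value entered it. The rule found 242 of the 10565 genes in the table, or 2.29%. All of them were at 1 TPM or more in at least 1 cell. TPM is a relative transcript level, corrected for transcript length, whose sum is nearly the same in every cell. Every gene of the table met that limit, since the lowest highest-cell value of any gene was 5 TPM. Zfp genes that are not in the table are not covered, and shares of members are shares of the 242 listed.

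The data were 56 single cells of 1 kind: wild type C57BL/6 mice aged 8 weeks gave splenic CD4+ T cells, which were activated with anti-CD3 and anti-CD28. Interleukin-4 and an antibody to interferon gamma drove them to Th2, interleukin-2 was added after 2 days, and the culture lasted 5 days. The cells were then stimulated again through CD3 and CD28 and captured with a Fluidigm C1 device. The labels number the cells in sets T1 (8 cells) and T2 to T5 (12 cells each) without saying what a set is, and no label ties a cell to an animal or a culture; the library of 10000 pooled cells was not used.

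With no second group and no replicate sample, the values have no test. The cells were treated as 1 sample, and spreads over cells are descriptions. Depth is unknown, since TPM keeps none and the values were rounded to whole numbers. A 0 is therefore given as a listed 0 and not as absence.

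A zinc finger is a short fold of the protein chain held together by a zinc ion. In the C2H2 type the ion is bound by a pair of cysteines and a pair of histidines, and fingers in a row read DNA bases, so many such proteins are sequence-specific transcription factors. Many also carry a KRAB box, which recruits the corepressor Trim28 (KAP1) and with it histone methylation that silences retroelements and imprinted loci. In the CCCH type 3 cysteines and 1 histidine bind the ion, and the fingers of the Zfp36 family hold AU-rich elements of cytokine messenger RNAs and bring in the CCR4-NOT deadenylase that shortens them.

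The kinds of finger that the results turn on are shown by 1 finger each. The coding DNA was read 5′ to 3′ from GENCODE M21 transcripts of the longest protein, with the codons of the zinc-binding cysteines and histidines in capitals. The Zfp36 family comes first, because its 3 members were compared with each other, followed by the member found in every cell and by a C2H2 gene from each end of the spread between cells.
Zfp36: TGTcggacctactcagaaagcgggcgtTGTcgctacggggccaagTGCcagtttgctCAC
Zfp36l1: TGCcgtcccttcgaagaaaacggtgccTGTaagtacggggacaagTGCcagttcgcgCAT
Zfp36l2: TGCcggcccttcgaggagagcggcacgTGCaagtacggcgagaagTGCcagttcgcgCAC
Zfp207: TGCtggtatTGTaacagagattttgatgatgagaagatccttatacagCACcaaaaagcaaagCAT
Zfp560: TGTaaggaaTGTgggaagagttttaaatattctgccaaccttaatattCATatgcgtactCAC
Zfp296: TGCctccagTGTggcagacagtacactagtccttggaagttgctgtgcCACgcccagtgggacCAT

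The CCCH fingers span 60 bases, of which Zfp36l1 and Zfp36l2 share 49 (81.7%), Zfp36 and Zfp36l1 share 42 (70.0%) and Zfp36 and Zfp36l2 share 40 (66.7%). The finger shown for Zfp207 is 1 of only 2 that a C2H2 pattern found in it, whereas Zfp560 has 15 and Zfp296 has 6. Of the 239 members with a transcript to search, 36 shared at least 5% of their 50-base windows with another gene, and 114 shared none. The sources used here do not say how the deposited values split reads between such copies, so the levels of those 36 genes are uncertain.

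The T cell and Th2 labels were checked on marker genes. Cd3d, Cd3e, Cd2 and Gata3 were each at 1 TPM or more in all 56 cells, Il4 in 54 and Cd4 in 37. Of 17 markers of other cell types, 4 were found in the table: Cd74 in 32 cells, Cpa3 in 5, Alas2 in 2 and Cd8b1 in 1. A cell had a median of 4743.5 genes at 1 TPM or more, from 2679 in T4_3 to 8396 in T3_5. Cell T3_5 stood apart by that number, and T3_2 by Mtrnr2l, a humanin-like gene, which took 20.1% of its TPM against at most 0.444% in any other cell. Counts of members without either cell are given beside the results, and no pair of cells had identical values.

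Most members were seen in few cells. Only 12 of the 242 (4.96%) were widely detected, meaning at 1 TPM or more in at least 42 cells, against a background of 22.9% of all genes. In contrast, 58 members (24.0%) were sporadic, meaning in at most 5 cells, against 14.6% of all genes. Zfp207 was the only member in every cell, and Zfp442, Zfp57 and Zfp167 were each in a single cell. Leaving out T3_5 gave 11 widely detected and 55 sporadic members, and leaving out T3_2 gave 12 and 51. In these counts the limits kept their share of the cells left, so sporadic meant at most 4 cells. The sporadic counts are therefore not comparable with the 58, and neither count was made over all genes without those cells. The median member was in 11 cells (quartiles 6 and 20), whereas the median gene of the table was in 22.

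**Figure D1:**
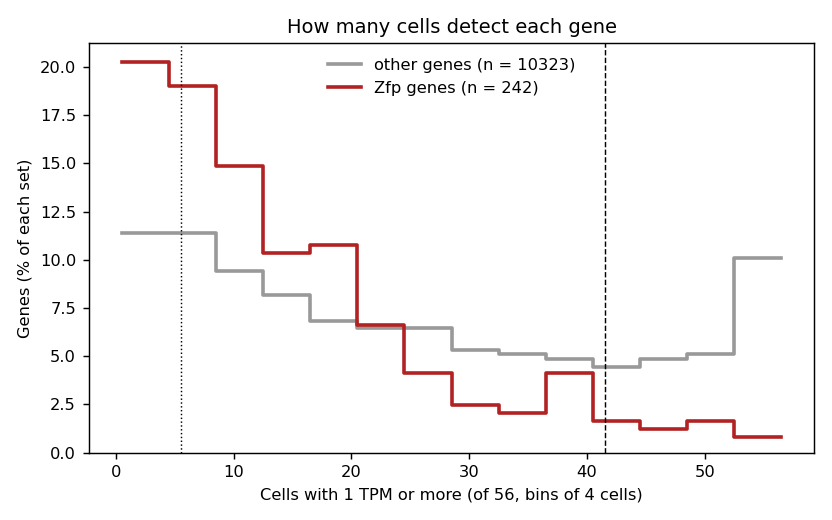
The horizontal axis is the number of the 56 cells in which a gene is at 1 TPM or more, and the vertical axis is the percent of genes in each bin of cells, for the 242 Zfp genes and for the 10323 other genes, with lines below and above which a gene is sporadic or widely detected. The Zfp genes pile up at the left, where 24.0% are in at most 5 cells against 14.6% of all genes, and thin out at the right, where 4.96% are in at least 42 cells against 22.9%.

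The intermediate classes showed the same shift. Between 6 and 14 cells there were 84 members (34.7%, against 22.4% of all genes), and between 15 and 27 cells there were 64 (26.4% against 22.2%). Between 28 and 41 cells there were 24 (9.92% against 17.9%). Of all member values in the table, 73.1% were 0, against 55.4% for all genes.

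The members were also low on average. Their median mean level was 7.46 TPM, from 0.286 to 308 TPM, against a median of 17.8 TPM over all genes, and across members the mean level and the number of cells had a Spearman rho of 0.76. Where a member was detected, its median value was 13 TPM for the median member against 20 TPM for the median gene. Members were therefore compared with genes of like level. With a mean under 5 TPM, 94 members were in a median of 5 cells and 2484 other genes in 6; between 5 and 10 TPM, 46 members were in 11.5 and 1349 other genes in 13. Between 10 and 20 TPM the medians were 18 cells for 53 members and 19 for 1536 other genes, and between 20 and 50 TPM they were 23 for 32 members and 29 for 2060 others. At 50 TPM or more, 17 members were in a median of 38 cells and 2894 others in 48, though within that class the median mean level was 65.9 TPM for members and 119 TPM for the others.

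A finer match set each gene against those next to it in mean level, 50 on either side (at the ends of the range the nearest ones). The median member was in 1 cell fewer than the median of those neighbours (difference of -1 cell, with 0 for the median of all genes). More than 7 cells above their neighbours were 30 members (12.4%, background 18% of all genes), and more than 7 below were 40 (16.5%, background 14.8%). The difference was not the same at all levels. Among genes with a mean of 20 to 50 TPM, where the median means were 30 TPM for members and 31.2 TPM for the others, the median difference of the 32 members was -5 cells. Of these, 14 (43.8%) were more than 7 cells below their neighbours, against 24.3% of the others, and 2 (6.25%) were widely detected, against 17.5%. At 50 TPM or more, 7 of 17 members (41.2%) were widely detected, against 68.0% of the others, with the unequal levels given above. Under 20 TPM the median difference was 0 or -1 cell in each class.

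At the low end of this comparison were genes with high values in few cells. This follows from the match on mean level, since fewer cells at a like mean must have higher values. Zfp772 was at 1 TPM or more in 5 cells, where 27 would match its mean of 25.04 TPM, and its highest value of 1068 TPM in T5_2 was 76.2% of its total. Zfp566 was in 14 cells, 19 below its level-matched genes, with a median of 0 and a highest value of 773 TPM. Zfp35, Zfp296 and Zfp523 were each 18 cells below. At the high end Zfp593 was 24 cells above its level-matched genes, Zfp36l1 and Zfp280d 23 each, Zfp746 21, and Zfp106 and Zfp560 20 each.

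A single cell often held most of a member's TPM. The highest cell gave a median of 41.03% of a member's total over the 56 cells, against 26.8% for the median gene. It gave more than 50% for 91 members (37.6%) against 2486 of all genes (23.5%), without a match for level. The gap was smaller within each class of mean level. Under 5 TPM the shares were 62.8% of members and 61.0% of other genes, and between 5 and 10 TPM 34.8% and 31.1%. Between 10 and 20 TPM they were 22.6% and 16.9%, and between 20 and 50 TPM 12.5% and 6.46%. At 50 TPM or more they were 0% and 2.32%. Among the 58 sporadic members the highest value ran from 12 to 1068 TPM with a median of 64.5 TPM. Zfp607 reached 995 TPM in T3_2, which is 86.1% of its total and 45.1% of all member TPM in that cell. Zfp784 reached 551 TPM in T3_3, Zfp661 513 TPM in T3_12 (92.3% of its total) and Zfp512 406 TPM in T3_6. With Zfp772 these were the 5 sporadic members with the highest values, found in 5 different cells, 4 of them from set T3.

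The number of members per cell varied widely. A cell had a median of 62 members at 1 TPM or more (SD over cells 20.3), from 28 in T3_3 and 30 in T4_3 to 115 in T1_6 and 167 in T3_5. Without T3_5 the median stayed at 62 and the SD was 14.99. For T1 to T5 the set medians were, in that order, 67.5, 63.5, 57, 63 and 63.5, and the ranges of the sets overlapped. As a share, the median cell had 25.6% of the members (11.6% to 69.0%) but 44.9% of all genes (25.4% to 79.5%).

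Cells with more other genes detected had more members. Over the 56 cells the Spearman rho was 0.83 and Pearson's r was 0.92, and without T3_5 they were 0.82 and 0.89. Both numbers come from the same libraries and share their depth, which is unknown. Taking T1 to T5 in order, the rho within a set was 0.83, 0.92, 0.97, 0.81 and 0.43. For each 100 further genes a cell had 2.10 further members by the line fitted to all 56 cells, T3_5 included. No line was fitted without T3_5. Per 100 genes detected, the median cell had 1.33 members (0.964 to 1.99). The highest was T3_5, followed by T3_2 at 1.68.

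**Figure D2:**
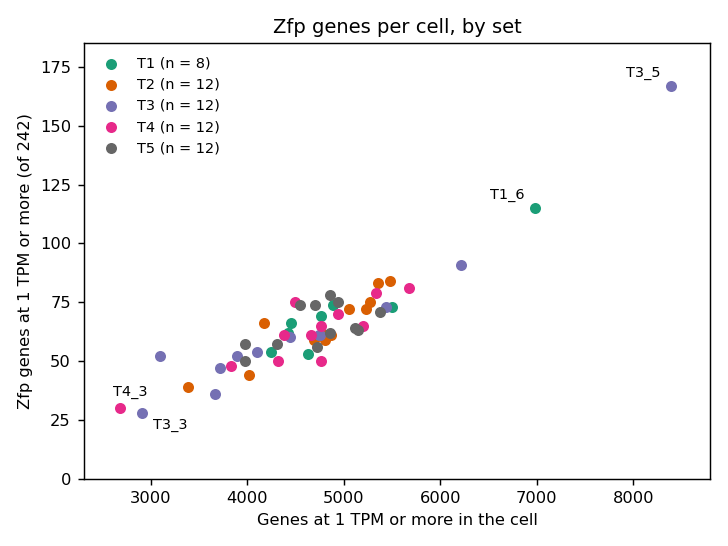
Each point is 1 of the 56 cells, coloured by set, with the genes at 1 TPM or more on the horizontal axis and the Zfp genes at 1 TPM or more on the vertical axis. The points climb together from T4_3 and T3_3, with 30 and 28 Zfp genes, to T1_6 with 115 and T3_5 with 167.

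The sporadic members were spread over the cells. A cell had a median of 3 of them, and 2 cells had none. T3_5 had 22, against at most 8 in any other cell, yet it gave the highest value of only 1 of them. Of the 12 widely detected members a cell had a median of 11 and at least 5, and 16 cells had all 12.

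Cells therefore shared a smaller part of their members than of genes at large, which were each in more cells (median 22 against 11). No level-matched share was computed. Over the 1540 pairs of cells, which reuse each cell, a median of 28 members was detected in both (5 to 94), or 27.7% of the members found in either (8.11% to 55.6%). For all genes the median was 49.4% (27.7% to 74.0%). The member with the highest level also changed from cell to cell: 31 different genes held that place, Zfp207 in 6 cells. All members together made up a median of 0.369% of a cell's TPM (0.151% to 0.695%).

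Among the widely detected members, Zfp207 had the highest level. It binds microtubules and Bub3 and helps chromosomes align on the mitotic spindle. Zfp207 ranged from 3 to 1095 TPM over the cells with a median of 259.5 TPM, and it was detected in 56 of 56 cells (exact Clopper-Pearson 95% interval 93.6% to 100%, counting error only, as for the intervals that follow). Its set medians ran from 155 TPM in T4 to 413.5 TPM in T1. Its mean was 308 TPM (SD over cells 222).

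Zfp655, a C2H2 gene, was in 51 cells (80.4% to 97.0%), from 0 to 916 TPM with a median of 92 TPM. Zfp330, a cysteine-rich nucleolar protein, was also in 51 cells, from 0 to 592 TPM with a median of 85.5 TPM. Zfp330 shared 19.1% of its windows with another gene, so its level is uncertain. Zfp263, a C2H2 transcription factor, was in 42 cells (61.6% to 85.6%) and lay at the threshold itself. It ranged from 0 to 714 TPM with a median of 41.5 TPM, and its mean of 122 TPM was close to that of Zfp330 although it was listed at 0 or below 1 TPM in 14 cells. The next member outside the threshold was Zfp295 (now Zbtb21), in 41 cells.

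Below these came genes with modest levels in most cells. Zfp187 (now Zscan26) was in 48 cells, from 0 to 362 TPM with a median of 46 TPM. Zfp706 was in 54 cells, from 0 to 406 TPM with a median of 35.5 TPM, and shared 7.83% of its windows. Zfp106, an RNA-binding protein, was in 51 cells, from 0 to 392 TPM with a median of 21.5 TPM. Its set medians were 54, 39, 7, 27.5 and 4.5 TPM for T1 to T5 in order. What the sets are was not given, and no difference between them was tested.

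Zfp593, the mammalian counterpart of a yeast ribosome assembly factor, was in 46 cells, from 0 to 174 TPM with a median of 9 TPM. Zfp746, known as PARIS, a repressor that is a substrate of parkin, was in 43 cells, from 0 to 254 TPM with a median of 4 TPM. Zfp280d was also in 43 cells, from 0 to 134 TPM with a median of 5 TPM. These 3 genes were widely detected at mean levels of 16.1 to 18.5 TPM, which genes of like level reached in only 20 to 22 cells.

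**Figure D3:**
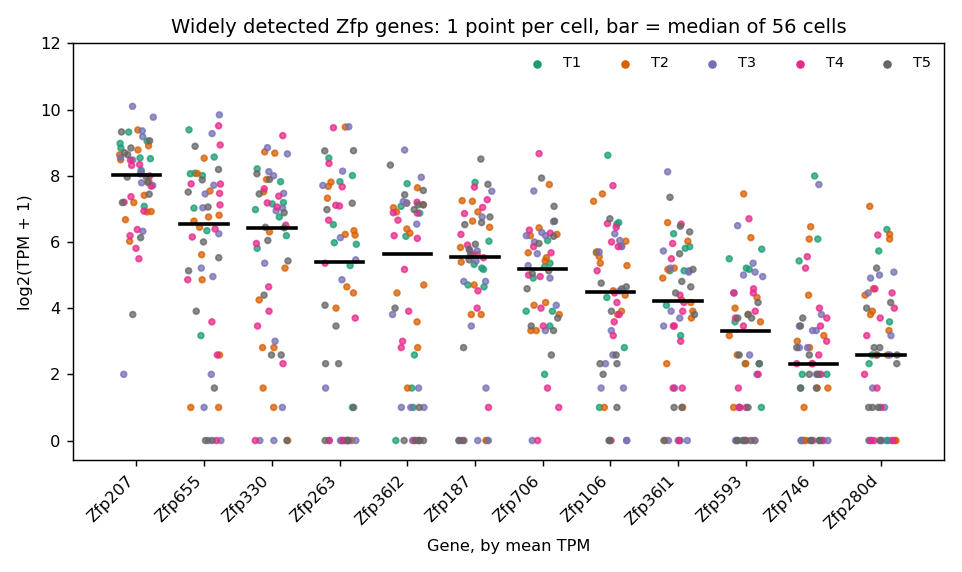
Each column is 1 of the 12 widely detected Zfp genes, ordered by mean TPM, and each point is 1 of the 56 cells, coloured by set, on a log2(TPM + 1) axis with a bar at the median. Zfp207 has no cell at 0, whereas the other genes have between 2 and 14 such cells and medians down to 4 TPM in Zfp746.

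Of the 20 members with the highest mean level, 12 were outside the widely detected class. Zfp62 had a mean of 76.7 TPM (SD over cells 150) and was in 37 cells, from 0 to 698 TPM with a median of 10.5 TPM. It was in 1 of the 8 cells of T1 but in 10 of the 12 cells of T2 and of T5. Zfp266, of the KRAB class, was in 39 cells, from 0 to 431 TPM. Its median was 97.5 TPM over the cells of T4, where it was in 11 of 12, and at most 5 TPM over those of any other set. These set patterns were picked after their values were seen and were not tested.

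Others of the 12 had a low median beside a high mean. Zfp639 had a mean of 67.5 TPM and a median of 2.5 TPM, in 32 cells. Zfp511 had 61.3 TPM and a median of 0.5 TPM, in 28 cells. Zfp472, Zfp386 and Zfp146 had means of 65.3, 64.9 and 53.6 TPM and medians of 0, in 25, 24 and 25 cells. Zfp317 was the even one among them, with a mean of 60.2 TPM, a median of 36 TPM and a variation excess, defined with the results on spread, of -0.77.

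The widely detected members were only weakly correlated with each other. Over their 66 pairs the mean Spearman rho over cells was 0.0553, with 41 pairs above 0. The mean over all pairs of widely detected genes was 0.0439. The highest was 0.35 for Zfp593 with Zfp655, and the lowest was -0.23 for Zfp36l1 with Zfp593. All rho values rest on the same 56 libraries, which share their depth differences, and the mean was 0.0200 once the number of genes detected was held constant.

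The Zfp36 family was measured through 3 genes. Zfp36l2 was in 47 cells (71.7% to 92.4%), from 0 to 438 TPM with a median of 51.5 TPM. Zfp36l1 was in 49 cells (75.9% to 94.8%), from 0 to 277 TPM with a median of 17.5 TPM. Zfp36 (tristetraprolin) was in 29 cells (38.0% to 65.3%), from 0 to 348 TPM with a median of 1 TPM. By mean level the order was Zfp36l2 (77.9 TPM, SD 91.6), Zfp36l1 (33.1 TPM, SD 45.7) and Zfp36 (21.7 TPM, SD 55.3), with each SD over cells larger than the gap to the next mean. All 3 were detected in 25 cells, 2 of them in 23 cells, 1 in 4 cells and none in 4 cells.

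Between cells Zfp36 and Zfp36l1 had a Spearman rho of 0.33, and both were detected in 28 cells, where independent detection would give 25.4. Zfp36 with Zfp36l2 had 0.11, and Zfp36l1 with Zfp36l2 had 0.16. The rho of the family with messenger RNAs known to carry AU-rich elements was computed for 11 targets, 33 pairs in all, of which 20 were above 0. Only 3 pairs were above 0.2 or below -0.2. All 3 were with cytokines, as are most of the 11 targets. The share of pairs of this size among the other members was not computed.

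The largest of these was Zfp36 with Il4, the signature Th2 cytokine, at a rho of 0.48. It was the highest rho with Il4 among the 136 members in at least 10 cells, whose rho with Il4 averaged 0.07 and ran from -0.25 to 0.48. Taken set by set, it was -0.10 over the 8 cells of T1 and 0.56, 0.61, 0.62 and 0.46 over the 12 cells each of T2 to T5. It was 0.49 without the 2 cells farthest from the median of Il4, 0.47 without T3_5, 0.47 without T3_2, and 0.45 with the number of genes detected held constant. Pearson's r of log2(TPM + 1) was 0.40. Zfp36l1 with Il10 had 0.31 (0.24 with genes detected held constant), and Zfp36 with Il10 had 0.28 (0.23). Over the 136 members the rho with Il10 averaged 0.07 and ran from -0.38 to 0.45, so neither was the highest. These values describe 56 cells of 1 sample, and whether the gene pairs are linked was not tested.

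Of 25 symbols listed for the CCR4-NOT complex and its partners, 23 were in the table. Of these 23 genes 10 (43.5%) were widely detected, against the 22.9% of all genes. Their median mean level was 51.2 TPM, well above the 17.8 TPM of all genes, and they were in a median of 37 cells. The highest were Pabpc1, the poly(A)-binding protein (mean 743 TPM, 56 cells), Rqcd1, a CCR4-NOT subunit (483 TPM, 55 cells), and Ywhab, a 14-3-3 adaptor (101.3 TPM, 54 cells). The lowest, named after their values were seen, were the decapping cofactors Dcp1b (9 cells) and Edc3 (14 cells) and the deadenylase subunit Pan2 (10 cells), fewer than the 29 of Zfp36.

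A variation excess was computed for genes in at least 10 cells: the log2 of the squared coefficient of variation (CV) over cells, minus its median over the same neighbours in mean TPM. It could be computed for 136 members (56.2%), against 74.5% of all genes, so it does not speak for the sporadic ones. The median excess of these 136 was 0.19 (all genes, 0.00). An excess above 1, a CV squared over 2-fold that of like genes, was found for 20 (14.7%, background 13.1%), and below -1 for 17 (12.5%, background 15.1%). Both shares were near the background. The count above 1 was 12 without the cells of set T1, 20 without T3_2 and 21 without T3_5. The same counts over all genes were not made.

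**Figure D4:**
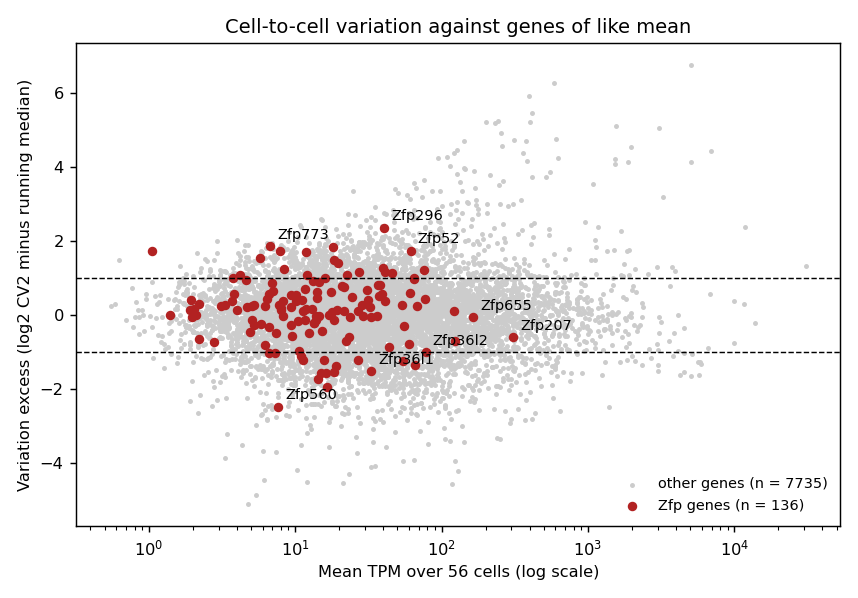
Each point is a gene in at least 10 cells, with its mean TPM on a log axis and its variation excess in log2 units on the vertical axis, the 136 Zfp genes over the other genes and dashed lines at 1 and -1. The Zfp genes scatter around 0, from -2.47 for Zfp560 to 2.36 for Zfp296.

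The most uneven member was Zfp296, a C2H2 protein known from pluripotent cells. It was in 15 cells, with a median of 0 and values of 1354 TPM in T3_7 and 378 TPM in the next cell. Its excess was 2.36, and 1.49 without its highest cell. Zfp773 came next at 1.86 (1.62 without its highest cell), in 21 cells with a mean of only 6.73 TPM.

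In the other 6 of the 8 most uneven members the excess was below 1 without the highest cell. Zfp574 had 1.83, and 0.62 without its highest cell. Zfp52 had 1.74, with a highest value of 1483 TPM in T3_6 against 438 TPM in the next cell, and 0.27 without it. Zfp799 went from 1.74 to -0.45, Zfp87 from 1.72 to 0.58, Zfp944 from 1.71 to 0.25 and Zfp934 from 1.54 to 0.79. In all, 10 of the 20 members kept an excess above 1 without their highest cell. Zfp934 shared 44.1% of its windows and Zfp944 10.4% with another gene, so their levels are uncertain.

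Other uneven members had high values in some cells and a median at or near 0. Zfp566, Zfp35, Zfp637 and Zfp143, in 14 to 18 cells, had 1.27, 1.14, 1.15 and 1.15, and each stayed above 1 without its highest cell. Zfp143 is an activator that binds many promoters. Zfp143 had a median of 0 and a highest value of 517 TPM, so cells with a listed 0 stood beside cells with high levels. Zfp948 (1.21) had a mean of 76.0 TPM in 29 cells, a median of 1 TPM, and 877 TPM in its highest cell.

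The most even members for their level were Zfp560 (-2.47), Zfp622 (-1.93), Zfp148 (-1.74), Zfp280d (-1.57), Zfp292 (-1.57), Zfp593 (-1.53), Zfp36l1 (-1.52) and Zfp367 (-1.38). Zfp560 was in 33 cells and never above 47 TPM. Zfp622, an assembly factor of the large ribosomal subunit, was in 37 cells with a highest value of 105 TPM. Zfp148 (ZBP-89), which binds GC-rich promoter boxes, was in 38 cells with a highest value of 122 TPM. In the second-highest cell these 3 genes had 36, 97 and 79 TPM, so no cell stood alone.

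Sorted by protein pattern, the KRAB class was detected in fewer cells than the other C2H2 genes. A KRAB-like match with C2H2 fingers was found in 111 members, which were in a median of 9 cells. None of these was widely detected (at most 39 cells, Zfp266), and 35 (31.5%) were sporadic. The 108 members with 3 or more C2H2 fingers and no KRAB-like match were in a median of 13 cells, with 6 widely detected and 21 (19.4%) sporadic. Divergent KRAB boxes can escape the pattern. With a looser match at 5 of 7 positions, chosen after seeing the data, the widely detected count was also 0. Such a match still misses boxes that differ more, and the widely detected Zfp263 and Zfp746, for instance, matched at only 3 positions. The count of 0 therefore holds for the pattern only, and whether a widely detected member has a KRAB box was not settled.

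The remaining classes were small. The 16 members with at most 2 C2H2 fingers were in a median of 19 cells, with 3 widely detected and 1 sporadic. The 4 members with a CCCH pattern were in a median of 48 cells, with 3 widely detected; they are the Zfp36 family and Zfp330, whose match is to the pattern only. Another 3 members (Zfp783, Zfp862 and Zfp939) had no protein to search and were in a median of 8 cells. Median mean levels were 6.54 TPM for the KRAB class, 8.38 TPM for other C2H2 genes, 8.97 TPM for those with few fingers and 55.5 TPM for the CCCH class. Over these 4 classes detection and mean level had the same order. The KRAB class was in a median of 1 cell fewer than its level-matched genes (-1), against 0 for other C2H2 genes.

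Among the 53 KRAB genes in at least 10 cells the median excess was 0.40, with 11 above 1 (20.8%, background 13.1%) and 2 below -1 (3.77%, background 15.1%). Without the highest cell of each gene 7 were above 1, and only 3 of the 11 were among them. Among 66 other C2H2 genes the median was 0.14, with 9 above (13.6%) and 10 below (15.2%). Without the highest cell 9 of these were above, 7 of them among the 9. Among 12 with few fingers the median was -0.59 with 0 above and 3 below, and among the 4 CCCH members it was -0.86 with 0 above and 2 below. Of the 36 members that share at least 5% of their windows with another gene, 26 were in the KRAB class. What part shared sequence has in its values was not tested.

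**Figure D5:**
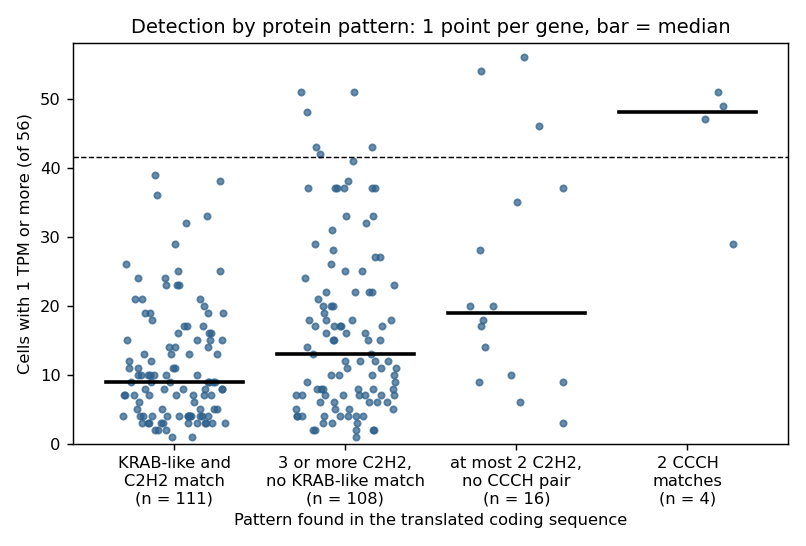
For each protein class, each point is a Zfp gene and the vertical axis is the number of the 56 cells in which it is at 1 TPM or more; bars are class medians and the dashed line is the limit of wide detection. The medians climb from 9 cells in the KRAB class through 13 and 19 to 48 in the CCCH class.

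By known role, the 4 silencing factors among the named members ranged from 1 to 36 cells. Zfp809, which silences murine leukaemia proviruses, was in 25 cells, from 0 to 408 TPM with a median of 0 and a mean of 24.4 TPM. Zfp445, which protects imprinted methylation, was in 36 cells, 8 above its level-matched genes, from 0 to 279 TPM with a median of 4 TPM. Zfp57, which has the same role in the early embryo, was in 1 cell (T4_1, 167 TPM; 0.0452% to 9.55% of cells). Zfp568, a repressor of a placental Igf2 transcript, was in 3 cells with a highest value of 22 TPM.

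The shared corepressor machinery was described through a fixed list. Of 23 genes for KRAB silencing, 22 were in the table and 9 (40.9%) were widely detected, against the 22.9% of all genes, and the median gene was in 38.5 cells with a mean of 37.8 TPM. Trim28 was in 45 cells (58.8 TPM) and Setdb1, the histone methyltransferase it brings in, in 46 cells (25.9 TPM). The 3 with the highest mean were the histone-binding Rbbp7 (302 TPM, 54 cells) and Rbbp4 (138 TPM, 52 cells) and Uhrf1, a reader of hemimethylated DNA (118 TPM, 37 cells). Cells with a gene of this list ranged from 16 for Atf7ip and 21 for Chd3, named after their values were seen, up to 56 for Cbx3.

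Of the members with other transcription roles, Zfp263, Zfp148 and Zfp143 were described above, in 42, 38 and 18 cells. The other 4 of that group ranged from 8 to 33 cells. Zfp281, a factor best known from stem cells, was in 33 cells, from 0 to 180 TPM with a median of 3 TPM. Zfp410, an activator of Chd4, was in 24 cells with a mean of 37.0 TPM. Zfp384 was in 18 cells with a mean of 2.20 TPM, and Zfp161 (now Zbtb14) in 8 cells with 5.66 TPM. All 4 of these were outside the widely detected class, and in the group only Zfp263 was inside it.

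Members that act on RNA or on other proteins were mixed. Zfp326, a splicing-linked factor, was in 35 cells with a mean of 23.3 TPM, and Zfp830, also linked to splicing, in 20 cells with 10.6 TPM. Zfp598, a ubiquitin ligase that acts on stalled ribosomes, was in 18 cells with 6.21 TPM, and Zfp346, which binds double-stranded RNA, in 10 cells with 3.11 TPM. Zfp91, a ubiquitin ligase of NF-kappaB signalling, was in 37 cells, 18 above its level-matched genes, with a mean of 13.8 TPM. Zfp451, a SUMO ligase, was in 16 cells with a mean of 17.7 TPM.

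Of members studied in lymphocytes or neurons, Zfp318, which controls IgD expression in B cells, was in 10 cells with a mean of 2.21 TPM. Zfp238 (now Zbtb18), known from the cortex, was in 6 cells with 2.14 TPM. Zfp292 was in 37 cells with 15 TPM, and Zfp1 in 26 with 28.6 TPM. None of these reached the widely detected class.

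Members that neighbour each other in the genome had a mean correlation close to that of all members. In the order of protein-coding genes, 51 pairs of members lay side by side, holding 80 members. For 17 pairs without overlap, each gene in at least 10 cells, the mean rho over cells was 0.0596, against 0.0479 over all pairs of the 136 members. It ran from -0.21 for Zfp954 with Zfp773 to 0.40 for Zfp329 with Zfp110, both pairs named after their values were seen. Of the 17, 11 were above 0.

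Other zinc finger gene families in the table, set beside the Zfp genes by level, had medians from 9 to 29 cells. Families were taken by the deposited symbol. Genes since renamed, such as Zfp187 (now Zscan26, 48 cells) and Zfp295 (now Zbtb21, 41 cells), were therefore counted as Zfp genes. The 29 Zbtb genes were in a median of 9 cells at a median mean level of 5.09 TPM, with 3 widely detected. The 10 genes listed as Zscan or Zkscan were in 12 cells (14.8 TPM) with none of these 10 widely detected. The 17 Zdhhc palmitoyltransferases were in 13 cells (8.80 TPM) with none. The 9 Klf genes were in 26 cells (19.6 TPM) with 3, the 17 Zc3h genes in 29 cells (27.7 TPM) with 4, and the 5 Ikzf genes in 22 cells (11.7 TPM) with 1. The 242 Zfp genes were in a median of 11 cells at 7.46 TPM, between Zbtb and Zdhhc by level. Of the Zbtb genes 9 (31.0%) were sporadic, against 24.0% of the Zfp genes. The sporadic counts for Zdhhc, Klf, Zc3h, Ikzf and Zscan with Zkscan were 2, 2, 2, 1 and 0. The highest cell gave more than 50% of the total for 41.4% of Zbtb genes and 37.6% of Zfp genes. In the other families that share was at most 23.5%.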

How the data were processed

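Expression was measured in 56 single cells, and the authors deposited 1 table of TPM values rounded to whole numbers, treated here as a score with no depth. Per the submitters' processing notes FastQC, Bowtie 0.12.2, Cufflinks and build mm9 were named, with no roles given. Members and lists were chosen with earlier results of these data known. Python 3.11.15 with numpy 2.4.6, pandas 2.3.3, scipy 1.17.1 and biopython 1.88 was used. Detection was set at 1 TPM. Variation excess and level-matched detection were computed against the neighbours in mean TPM (50 on either side), with calls beyond 1 and 7 cells. The scripts were tested on simulated data.

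Symbols were matched to GENCODE M21 (231 current symbols, 11 older symbols). Its build postdates mm9, and it was used for names, gene order and sequence, never for coordinates. Coding sequences of its longest proteins were translated and searched for C2H2 (C, 2 to 4 residues, C, 12 residues, H, 3 to 5 residues, H), CCCH and KRAB-like patterns (6 of 7 fixed positions). The design had assumed annotated proteins. Residues between the cysteines and the histidine of CCCH were 7 to 10, 4 to 6 and 3.

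Genes named were the Zfp36 family, the 20 highest means, the widely detected members, the 8 largest and 8 smallest excesses, the 5 largest and 5 smallest detection differences, the 5 highest sporadic values, fixed role groups and the 3 highest genes of each partner list. Zfp442, Zfp167, Zfp295 and the members without a protein were named after their values were seen. All cells form 1 group, so no test was run and p-values are not given. Thresholds, spread measures, left-out sets and cells were varied as alternatives.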

Additional observations from a re-analysis of the deposited data

How the results depend on the processing

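Of 115 alternative values of the results, 95 stayed within a limit and 20 did not. The limit was the SD over the cells or sets, or 1.5 times for a count. It was loose for some results and strict for others, so the tally does not measure stability. At 5 TPM the median cell had 44 members against 62, which was within the limit. The median detection difference was 0 within each set, so any change in it was beyond the limit. Detection at 5 TPM gave 7 widely detected and 97 sporadic members and a median detection difference of 0 cells. Detection at 10 TPM gave 5 and 122, with 37 members in the median cell. The counts at other detection limits or with cells or sets left out were not made over all genes. Whether the members changed more than other genes in these settings is therefore unknown. The count of members with an excess above 1 was 12 without set T1, 9 for genes in at least 20 cells (all genes 660) and 45 for genes in at least 3 (all genes 1493, against 1033 with at least 10); below -1 it was 9 for genes in at least 20 cells (all genes 802, against 1186). When spread was measured by the SD of log2(TPM + 1), where 1 is a different quantity, the counts above and below were 0 and 2 (all genes 95 and 317) and the median excess 0; with log2(TPM + 5) they were 0 and 0 (all genes 43 and 109) with a median of 0.0059. The median excess was 0.29 without set T5. The median detection difference was 0 without set T4 and 0 with the level taken without each gene's highest cell. The mean rho of widely detected members was 0.0200 with genes detected held constant. The cause of these changes was not tested. Where cells were left out, the cell thresholds kept their share. Sporadic then meant at most 4 cells, with a lower limit where a set of 12 cells was left out. An alternative with only the members that share under 5% of their windows, chosen after seeing the data, stayed within the limits. Cells of 1 sample, unknown depth and listed zeros limit all values, and no paired analysis was possible because there is 1 group. No result met a rule for a closer look.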
